A study of Mus musculus with 15 samples.

Results

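For the *Smarcd1* knockdown comparison, 44598 accessible regions were listed. Of these, 1041 (2.33%) had no close neighbor in that list and were also listed for the overexpression comparison. These isolated shared regions were chosen by position and length alone. Each was shorter than 1000 bp, shared at least 1 base with a region of the overexpression table, and had no other region of the knockdown table starting within 50000 bp of its own start. Chromosomes X, Y and M were left out, and no read count entered the choice. In the overexpression table, which lists 38036 regions, 1050 regions overlapped the 1041.

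ATAC-seq uses a transposase that cuts and tags DNA where chromatin is open, so the reads collected over a region measure how accessible it is. *Smarcd1* encodes a subunit of the SWI/SNF (BAF) complex, which uses ATP to slide or evict nucleosomes and is known for opening promoters and enhancers. Accessible elements of mammalian genomes tend to lie in groups around active genes, and an element with no neighbor over a long distance is the exception.

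The libraries came from 6DT1, a mouse mammary tumor cell line, grown as a monolayer without treatment. The 5 groups had 3 libraries each. EV cells carried an empty vector, OE cells overexpressed *Smarcd1*, Scr cells carried a scrambled short hairpin RNA, and KD4 and KD6 cells were 2 *Smarcd1* knockdown lines. According to the methods, all lines were made by viral transduction, with puromycin selection for the hairpin lines and blasticidin selection for the overexpression lines, so EV and Scr differ in vector and drug as well as in name. Each group is 1 line, and the labels say that its replicates were seeded from different passages, in a protocol text that describes RNA extraction. Differences between lines can therefore not be told apart from differences between separately derived cultures, and p-values measure the spread between libraries of a line. In bulk libraries, a smaller share of cells with an open region and a less open region in each cell cannot be told apart.

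Library totals ranged from 16176521 to 23703741 counts in the knockdown table and from 22668624 to 31225937 in the overexpression table. EV replicate 1 stood apart from the other libraries, with a TMM scaling factor of 0.882 in the knockdown table and 0.869 in the overexpression table. Some summaries of comparisons with EV, not all, are given with and without it. Levels are in CPM, counts relative to the TMM-scaled total of the library, and the sets of regions are also compared per kilobase of length (CPM per kb). Bands and ranges in CPM, which are not divided by length, group regions by the counts behind them. The regions have mm39 positions and no gene names, since no mm39 annotation was used here. The level of *Smarcd1* itself and the defining markers of mammary cells were for the same reason not analysed here.

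The median distance from an isolated region to the nearest other start was 121236 bp, compared with 1187 bp over all regions. The most distant was chr16:41019598-41019809, a 212 bp region with no other start for 1756415 bp, followed by chr15:19051857-19052255 at 1613597 bp and chr8:59588810-59589091 at 1520769 bp. Their means were 2.47, 4.66 and 3.75 CPM, or 11.6, 11.7 and 13.3 CPM per kb, below the median of the set given next. Distance and level were nearly unrelated across the isolated regions (Spearman's rho 0.0475 over 1041 regions counted in the same 15 libraries). At the edge of the rule, the closest pair allowed was 50038 bp apart (3.06 CPM for that region), and the nearest region left out was at 49978 bp (6.22 CPM). Another 32 isolated shared regions were left out for their length, from 1014 bp upward, whereas the longest one kept had 997 bp, and 79 were left out because they lay on X, Y or M. Isolated shared regions made up 2.42% of all listed autosomal regions. By chromosome their share was highest on chromosome 13 (69 of 1794 regions, 3.85%) and lowest on chromosome 11 (45 of 3160, 1.42%).

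By their median level, regions that were isolated and shared were not weak, although 28.6% of them lay below 5 CPM, against 46.6% of all regions. The median level of the isolated shared regions was 40.4 CPM per kb, compared with 30.3 for the 23989 other shared autosomal regions under 1000 bp and 18.2 for all regions. At the low end the isolated shared regions had a 10th percentile of 1.89 CPM, below the 2.33 CPM of the other shared regions. Isolated regions that were listed in the knockdown table only, of which there were 729, had a median of 5.93 CPM per kb. The median lengths of the 3 sets were 308, 323 and 259 bp. The upper end differed most: 106 isolated shared regions (10.2%) exceeded 500 CPM per kb, against 2.02% of the other shared regions and 0 of the isolated regions seen in 1 table. These are descriptions of the listed regions, since being listed in both tables itself depends on signal.

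**Figure D1:**
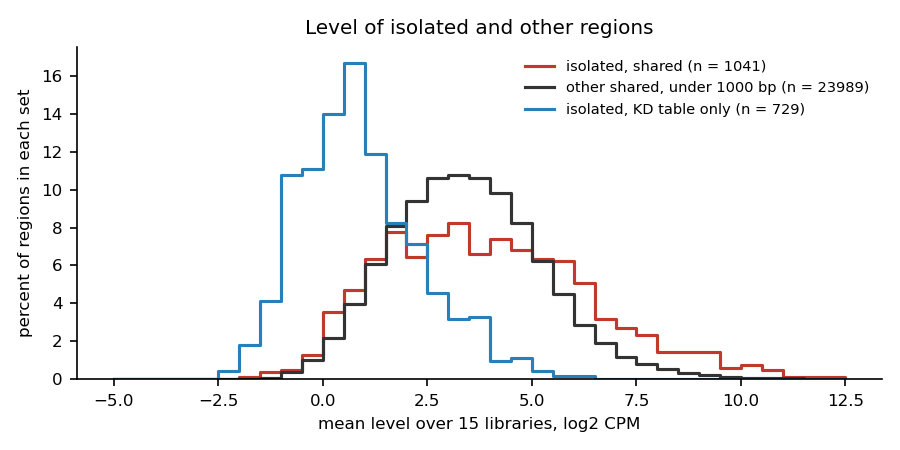
Distribution of region levels in the knockdown table. The x axis is the log2 of the mean CPM over 15 libraries, and the y axis is the percent of each set per bin. A larger percent of the isolated shared regions (red, median 13.4 CPM) than of the other shared regions (black, median 10.4 CPM) lies toward the right. At the low end the 10th percentiles are 1.89 CPM (red) and 2.33 CPM (black). Both sets end in the same bin. Isolated regions of the knockdown table only (blue, median 1.64 CPM) lie to the left.

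The levels within the set spanned 0.310 to 4811 CPM, and few regions carried most of the signal. Below 5 CPM lay 298 regions, which held 0.918% of the counts of the set, whereas the 37 regions at 500 CPM or more held 51.9%. The 10 highest held 26.9%. In total, the 1041 regions held 8.39% of all counts of the knockdown table. Replicates varied by a median of 13.8% within groups (coefficient of variation), compared with 15.3% over all regions. The smallest rank correlation between 2 libraries over the isolated regions was 0.967, a description of regions that share the same wide range of levels.

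The region with the highest level per kilobase was chr17:40154075-40154293, at 4142, 3793 and 4872 CPM in EV, 4407, 5446 and 6439.5 in OE, 6945, 4051 and 7497 in Scr, 6255, 3385 and 2313 in KD4, and 3477, 5269.7 and 3875 in KD6. Its replicates spread so widely that the groups overlapped, and it did not pass the test in KD vs Scr (log2 fold change -0.59 ± 0.241 SE, FDR 0.514). The next by level per kilobase were chr16:57211725-57211879 (1643 CPM), chr18:63677110-63677273 (1107 CPM), chr10:56373442-56373914 (2862 CPM) and chr8:15569855-15570070 (1260.2 CPM). The group means of the chromosome 10 region ran from 2633 ± 292 (KD4) to 3147 ± 250 CPM (EV, with SD and n = 3). Its replicates spread most in Scr, at 2804 ± 487 CPM. The chromosome 16 and chromosome 8 regions were uneven within groups, and the latter ran from 650.2 to 1299 CPM in KD4 and from 1154 to 2959 in KD6. None of these 5 passed the test in any comparison reported here. At the other end, chr17:43201546-43201716 had a mean of 0.310 CPM and chr1:24121125-24121613 had 0.897.

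The deposited values are expected counts, which need not be whole, and the share of values that were not whole rose with level. It was 0.291% below 5 CPM, 3.59% from 5 to 50, 13.5% from 50 to 500, and 21.8% at 500 CPM or more. Over all regions the same bands had 1.66%, 5.70%, 17.9% and 37.9%. Of the isolated regions, 726 (69.7%) had a whole count in every library and 7 had none in any library. The sources used here do not state how reads were divided between places, and its part in the levels was not tested.

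The same libraries were counted over both sets of regions, so each isolated region could be read a second time. The median ratio of the overexpression-table count to the knockdown-table count was 0.977, and 608 regions (58.4%) lay between 0.9 and 1.1, compared with 49.3% of the other shared regions. A ratio over 1.5 was found for 28 regions (2.69%, against 5.25% of the others) and under 0.5 for 50 (4.8%, against 6.68%). In the overexpression table, 806 of the isolated regions (77.4%) again had no other start within 50000 bp.

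One region took a far larger share of the counts in the overexpression table than in the knockdown table. The chromosome 17 region chr17:40154075-40154293 has 219 bp in the knockdown table, and in the overexpression table it lies within chr17:40153966-40156541, which has 2576 bp. Its count was 18.1 times as large there, and it held 6.48% of all counts of that table, against 0.473% in the knockdown table. By library this share ran from 3.64% (KD4 replicate 3) to 10.8% (Scr replicate 3). The next largest ratio, 5.44, belonged to chr16:57211725-57211879, a 155 bp region set against one of 294 bp.

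**Figure D2:**
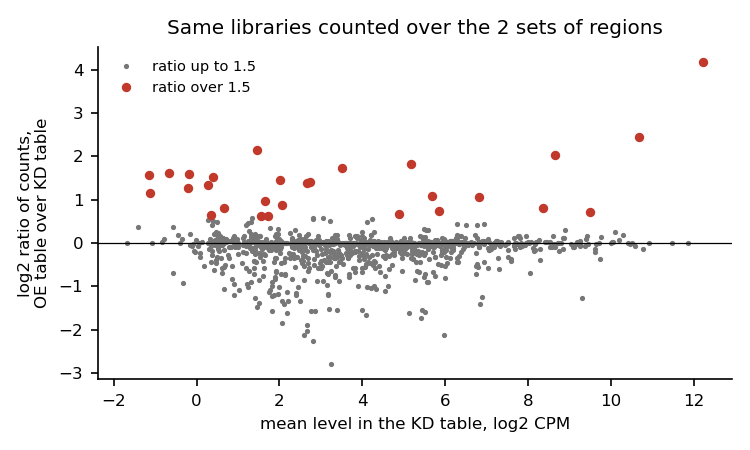
Ratio of counts in the overexpression table to counts in the knockdown table for each isolated region (y axis, log2), against its mean level in the knockdown table (x axis, log2 CPM). Most points lie along 0, the 28 red points have a ratio over 1.5, and the point at the upper right is the chromosome 17 region with a ratio of 18.1.

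The share of a library's counts that fell in isolated regions was then compared between groups. In the knockdown table it was 8.26% ± 0.281 in the 6 KD libraries and 8.32% ± 0.186 in the 3 Scr libraries (SD; two-sided exact permutation test, p = 0.750). It was 8.74% ± 0.442 in EV, and the difference of Scr from EV was -0.415 percentage points (p = 0.200 in an exact permutation test whose smallest possible value is 0.1), or -0.169 without EV replicate 1. Counted over the overexpression table, the difference of Scr from EV turned to 2.77 points (exact permutation p = 0.200), and that of KD from Scr was -2.05 (exact permutation p = 0.167) against -0.0617 in the knockdown table. In the overexpression table the share was 13.4% ± 1.04 in OE and 11.9% ± 1.02 in EV (n = 3 each, exact permutation p = 0.200), a difference of 1.5 points, or 0.990 without EV replicate 1. Leaving out the chromosome 17 region turned this difference to -0.362, the knockdown table gave -0.481, and the KD vs Scr difference in the knockdown table became 0.137 without it. No KD vs Scr test of the share gave an exact permutation p under 0.05. With 3 libraries against 3, the exact permutation p cannot fall below 0.1. The OE vs EV and Scr vs EV tests could therefore not pass, and no conclusion is drawn from them.

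**Figure D3:**
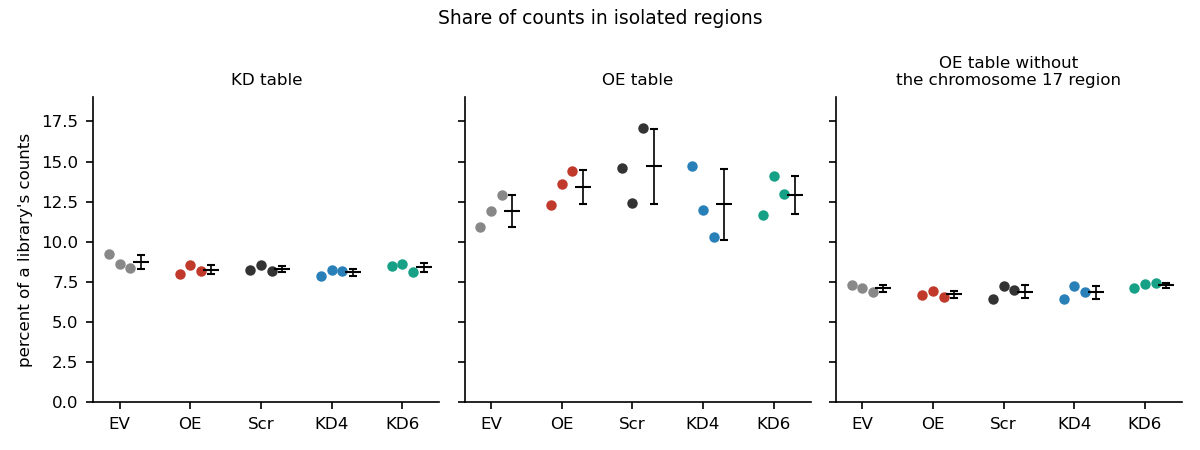
Percent of each library's counts in isolated regions (points are libraries, bars the mean and SD, n = 3), in the knockdown table (left), the overexpression table (middle) and the overexpression table without the chromosome 17 region (right). The spread of the middle panel, from 10.3 to 17.1%, is absent on the right, where values run from 6.46 to 7.41%.

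The first comparison asked where accessibility differed after *Smarcd1* knockdown. In KD vs Scr, 2 isolated regions rose and 1 fell among the 1039 that passed the filter on low counts (0.289%). Over all regions tested, 0.271% were called, 0.255% as higher and 0.0158% as lower. The share called among isolated regions was therefore near that of the whole table. The median log2 fold change was -0.024 for the isolated regions and -0.005 for all, and 90% of the isolated ones lay between -0.353 and 0.301. Counted over the overexpression table, the medians were 0.052 and -0.016. By level, isolated regions had medians of -0.106 below 5 CPM, -0.020 from 5 to 50, 0.018 from 50 to 500 and 0.026 above. Those of all regions in these bands were 0.002, -0.012, 0.004 and 0.003.

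The region that fell was chr1:55483841-55484125 (285 bp). It had 93.4, 107 and 119 CPM in Scr, 51.5, 56.5 and 64.3 in KD4, and 70.6, 70.7 and 71.1 in KD6, for a log2 fold change of -0.74 ± 0.110 (SE, FDR 0.0103). All 6 KD libraries lay below the 3 Scr libraries. EV, at 78.9 to 85.5 CPM, and OE, at 68.6 to 83.4, lay between Scr and KD4. Against Scr, KD4 passed alone (-0.89 ± 0.131, FDR 0.00579) and KD6 did not (-0.59 ± 0.130, FDR 0.111). The call was kept in 14 of 18 alternative analyses. It was lost without Scr replicate 2 (-0.74) or Scr replicate 3 (-0.65), with KD6 alone and in the overexpression table (-0.63), where the direction was the same.

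The 2 regions that rose were unlike each other. Region chr1:77483262-77483838 (577 bp) was weak, at 3.65, 4.64 and 3.63 CPM in Scr, 6.48, 7.99 and 6.48 in KD4, and 10.3, 7.26 and 7.56 in KD6 (0.94 ± 0.174, FDR 0.0298). Both knockdown lines were above Scr in every library, EV lay between them (4.99 to 6.43 CPM), and OE (4.49 to 5.69) reached down into the range of Scr. KD4 alone did not pass (0.81 ± 0.195, FDR 0.0755), and in the overexpression table, where the count was 0.229 times as large, the call was lost (0.71, FDR 0.421, the highest over its alternatives). Region chr9:7446962-7447633 (672 bp) had 26.9, 32.9 and 38.2 CPM in Scr, 24.8, 33.5 and 43.2 in KD4, and 103, 90.8 and 97.0 in KD6. KD4 overlapped Scr here, and only KD6 stood above it, so the call for the mean of both lines (0.81 ± 0.157, FDR 0.0353) came from 1 line. No value of this region was a whole number in any of the 15 libraries. The part of this in the result was not tested. Each of the 2 calls was kept in 10 of 18 alternative analyses, and leaving out Scr replicate 1, 2 or 3, KD4 replicate 2, or KD6 replicate 1 or 2 lost both. In those 6 analyses the log2 fold change ran from 0.85 to 1.07 for the chromosome 1 region and from 0.68 to 0.94 for the chromosome 9 region, whose call was also lost without KD4 replicate 3 (0.70). The number of isolated regions called in KD vs Scr was 0 without Scr replicate 2 or 3, and 1 without Scr replicate 1, KD4 replicate 2, or KD6 replicate 1 or 2. Over all regions these analyses called 21, 8, 15, 46, 53 and 43 in that order, against 120 with every library.

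Each line was also set against Scr by itself. In KD4 vs Scr, 4 isolated regions fell and 0 rose (0.385% of 1039, against 0.576% called over all regions, 191 higher and 64 lower). Besides the chromosome 1 region, these were chr5:93538685-93539345 (-0.86 ± 0.136, FDR 0.0101), chr15:78505255-78505424 (-0.93 ± 0.181, FDR 0.0263) and chr12:108407305-108407496 (-1.04 ± 0.204, FDR 0.0269). In the chromosome 12 region, a 192 bp element, KD4 had 4.96, 4.87 and 7.26 CPM, and the other groups lay between 9.02 and 14.2 apart from EV replicate 1 at 22.7. In KD6 vs Scr, 2 isolated regions rose and 0 fell (0.192%, against 0.149% over all regions, 63 higher and 3 lower), namely the chromosome 9 region (1.57 ± 0.177, FDR 0.00178) and chr1:77483262-77483838 (1.07 ± 0.194, FDR 0.0332).

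The 2 knockdown lines were compared directly in the same fit. In KD6 vs KD4, 4 of 1039 isolated regions (0.385%) were called, against 0.224% over all regions tested (67 higher and 32 lower in KD6), and all 4 were higher in KD6. The chromosome 9 region differed by 1.52 ± 0.177 (FDR 0.00203). Region chr5:93538685-93539345 (661 bp) had 11.5, 13.3 and 14.6 CPM in KD4 and 28.7, 27.1 and 27.8 in KD6 (1.08 ± 0.135, FDR 0.00257). Scr, at 22.6 to 25.7 CPM, EV, at 21.7 to 28.5, and OE, at 25.8 to 27.2, all lay near KD6, so that KD4 was the line that stood apart.

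On chromosome 15, 2 regions showed the same order. Region chr15:74917075-74917378 (304 bp) had 33.1, 56.1 and 43.8 CPM in KD4 and 84.6, 82.7 and 82.8 in KD6 (0.91 ± 0.171, FDR 0.0339), with Scr at 63.9 to 88.1 and EV at 96.5 to 104. Region chr15:78505255-78505424 (170 bp) had 10.1, 7.86 and 11.1 CPM in KD4 and 18.2, 14.7 and 23.1 in KD6 (0.95 ± 0.180, FDR 0.0350). In both, KD4 lay below every library of the other 4 groups. The chromosome 9 and chromosome 5 calls were kept in all 15 alternative analyses run. The chromosome 15 calls were kept in 9 and 6 of them, with log2 differences from 0.74 to 0.92 and from 0.77 to 1.09 where they were lost. The number of calls was 2 when Scr replicate 1, KD4 replicate 1 or 3, or any 1 KD6 library was left out, and 7 without Scr replicate 2. Over all regions these analyses called 68, 74, 60, 56, 17, 56 and 101 in that order, against 99 with every library.

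**Figure D4:**
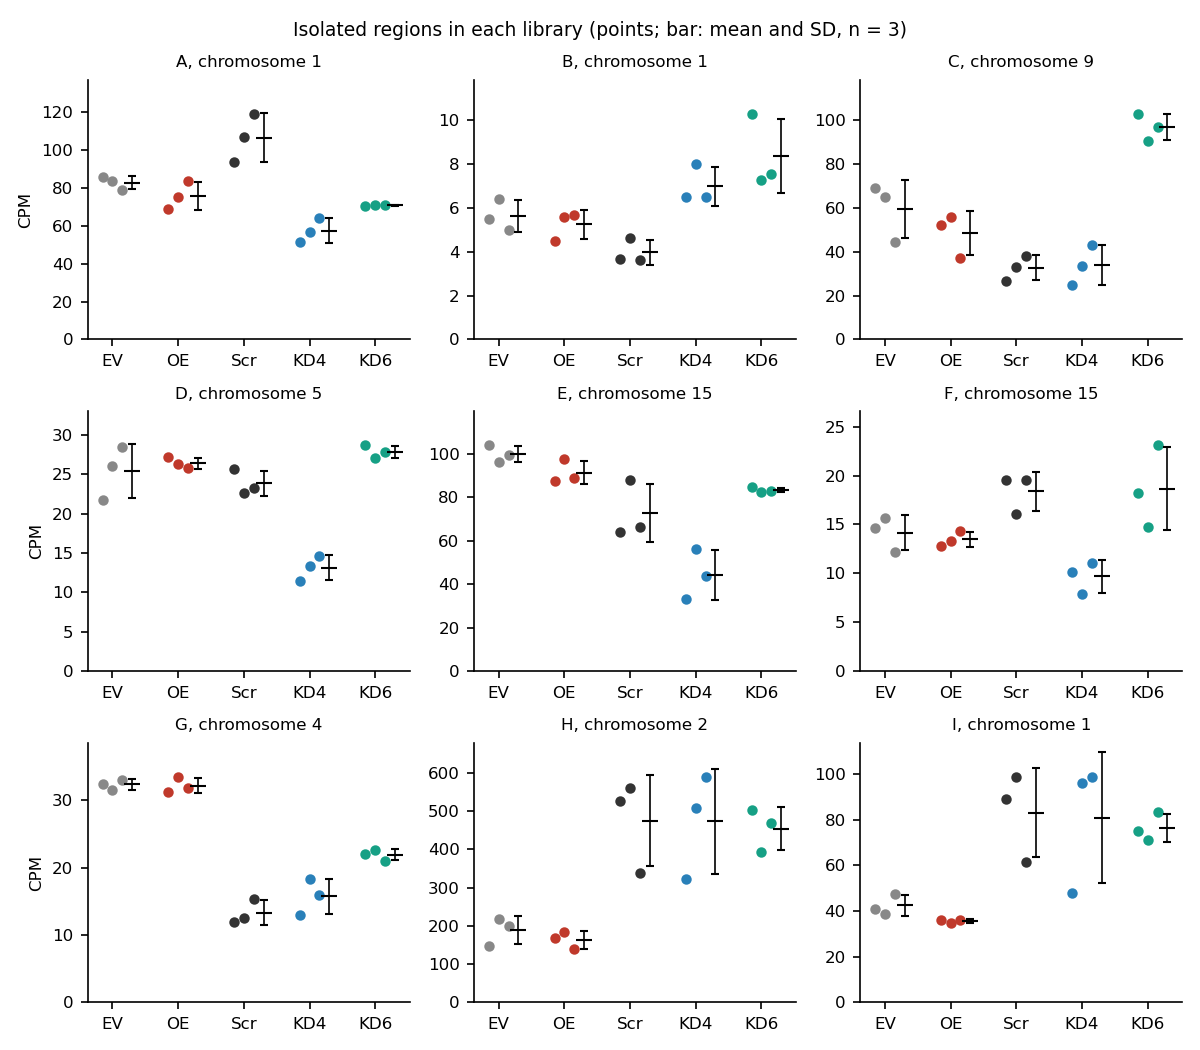
Level of 9 isolated regions in each library (y axis, CPM from 0; points are libraries, bars the mean and SD, n = 3). Panels A to I show the regions starting at 55483841 and 77483262 on chromosome 1, 7446962 on 9, 93538685 on 5, 74917075 and 78505255 on 15, 122234843 on 4, 140797842 on 2 and 142288077 on 1; KD6 stands above the rest in C (90.8 to 103 CPM), KD4 below it in D to F, and EV and OE apart from the hairpin lines in G to I.

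The second comparison asked the same of *Smarcd1* overexpression, in the table made for it. No isolated region passed the test in OE vs EV (0 of 1048 by edgeR and 0 by DESeq2, which gave 151 unadjusted p under 0.05), and over all regions 0.0106% did. At an unadjusted p under 0.05, 161 (15.4%) lay below the threshold, compared with 8.57% of all regions, and of these 13 had positive and 148 negative fold changes, against 1651 and 1586 over all regions. The median log2 fold change was -0.103 for the isolated regions and 0.021 for all, with 68.5% and 46.4% of values below 0. Without EV replicate 1 the medians were -0.099 and 0.004, and 90 regions had an unadjusted p under 0.05. That number was 76 without OE replicate 1, 65 without OE replicate 3 and 141 without EV replicate 2. It rose to 195 without OE replicate 2 and 223 without EV replicate 3. With RLE size factors it was 176, and with the replicate number as a block 227. The shares over all regions in these alternatives are not given here. Without TMM scaling 95 had an unadjusted p under 0.05 and the medians were -0.007 and 0.117, so the isolated regions remained lower relative to the rest while their own value was near 0. Counted over the knockdown table, the medians were -0.025 and 0.002.

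The fold change in OE vs EV varied with level. Its median was 0.048 for isolated regions below 5 CPM in the overexpression table, -0.128 from 5 to 50, -0.226 from 50 to 500 and -0.268 at 500 CPM or more. Over all regions the medians of these bands were 0.167, -0.057, -0.149 and -0.231, falling in the same order. Within each band the isolated regions were lower than the whole table, by less than the change from the lowest band to the highest. Without EV replicate 1 the isolated bands had medians of 0.034, -0.116, -0.176 and -0.199, and those of all regions 0.145, -0.059, -0.126 and -0.151. The part of library composition in this relation was not tested.

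**Figure D5:**
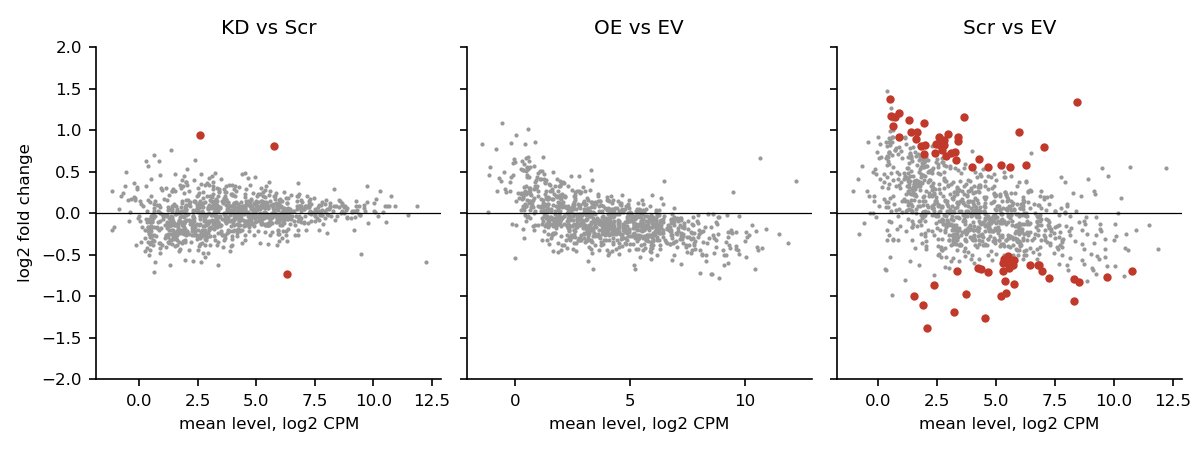
Log2 fold change of each isolated region (y axis) against its mean level in the knockdown table (x axis, log2 CPM) in KD vs Scr (left), OE vs EV (middle; value of the overexpression-table region with the longest overlap) and Scr vs EV (right). Red points passed FDR 0.05 (3, 0 and 73 regions); the right cloud slopes downward with level, from a median of 0.350 below 5 CPM to -0.308 at 500 CPM or more, and so does the middle one, where the corresponding medians, in bands of the overexpression table's level, are 0.048 and -0.268.

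More isolated regions were called between the control lines than between either of them and its altered lines, a difference of counts that was not itself tested. In Scr vs EV, 73 of 1036 isolated regions were called (7.05%, against 4.38% over all regions), 39 higher in Scr and 34 lower (2.19% and 2.20% of all regions). At an unadjusted p under 0.05 the shares were 32% and 22.8%. The division into higher and lower depended on the scaling and on the regions counted. It was 43 and 20 without TMM, 35 and 42 with RLE size factors and 39 and 50 with DESeq2. Counted over the overexpression table, the division was 22 and 65. Over all regions these alternatives called 1511, 2038, 2222 and 2013 in that order, against 1921. Their division over all regions is not given here. Without TMM the median log2 fold change moved from 0.025 to 0.125 over all regions and from 0.009 to 0.105 for the isolated regions. Counted over the overexpression table, it was 0.015 over all regions and -0.110 for the isolated regions. The number of calls also rested on single libraries. It was 8 without Scr replicate 1, 14 without EV replicate 2, 15 without Scr replicate 3 and 19 (13 higher, 6 lower) without EV replicate 1. In contrast, it was 97 without Scr replicate 2 and 120 without EV replicate 3. Over all regions the number moved with it, at 366, 411, 454, 660, 2661 and 2852 in the same order, against 1921 with every library.

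By their medians, the regions higher in Scr were shorter and had lower levels than the regions lower in Scr, with single regions on the other side. The 39 higher ones had a median length of 217 bp and median levels of 4.76 CPM in EV, 4.98 in OE, 8.32 in Scr, 6.76 in KD4 and 7.6 in KD6. The 34 lower ones had a median length of 446 bp and median levels of 58.5 CPM in EV, 44.5 in OE, 33.9 in Scr, 38.9 in KD4 and 40.2 in KD6. EV and Scr values here are those that made the calls and are given as a description. The median fold change again fell with level, from 0.350 below 5 CPM to -0.032, -0.166 and -0.308 in the bands above, and over all regions from 0.158 to -0.033, -0.111 and -0.170. Without EV replicate 1 the isolated bands had medians of 0.362, -0.031, -0.118 and -0.202, and those of all regions 0.143, -0.027, -0.082 and -0.114.

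The strongest of these calls was chr4:122234843-122235493 (651 bp), at 32.5, 31.5 and 33.1 CPM in EV and 12, 12.6 and 15.4 in Scr (-1.27 ± 0.147, FDR 0.000101). OE, at 31.3 to 33.5 CPM, overlapped EV, KD4 had 13 to 18.3, and KD6 had 21.0 to 22.6, between the controls. Its KD6 vs Scr value was 0.72 ± 0.154 (FDR 0.0915) and its KD6 vs KD4 value 0.48 ± 0.152 (FDR 0.371), which did not pass. Region chr2:140797842-140797999 (158 bp) went the other way, at 148, 217 and 200.4 CPM in EV and 525, 559 and 338 in Scr (1.34 ± 0.193, FDR 0.000794). Its means were 164 ± 22.8 in OE, 473 ± 137 in KD4 and 454 ± 56.5 in KD6 (SD, n = 3), so the hairpin lines lay together and the overexpression lines together. Both calls were kept in 14 of 14 alternative analyses, those without EV replicate 1 included.

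Region chr1:142288077-142288326 (250 bp) was also higher in Scr, with 38.9 to 47.6 CPM in EV and 61.4 to 98.6 in Scr (0.98 ± 0.165, FDR 0.00292). KD4 spread from 47.8 to 98.8 CPM there, reaching from near EV to the top of Scr. Another 2, weaker regions rose as well, chr6:6735954-6736256 from a mean of 6.39 ± 1.88 to 14.1 ± 3.30 CPM (1.16 ± 0.213, FDR 0.00547) and chr7:132719584-132720008 from 7.18 ± 1.16 to 13.5 ± 2.73 (0.92 ± 0.183, FDR 0.00984). Among the regions that fell, chr16:3163171-3163510 went from 6.95 ± 1.20 to 2.67 ± 0.711 CPM (-1.38 ± 0.227, FDR 0.00237) and chr9:64622590-64623109 from 18.5 ± 3.96 to 9.28 ± 1.31 (-0.98 ± 0.175, FDR 0.00439). The chromosome 9 region that set KD6 apart, chr9:7446962-7447633, was lower in Scr than in EV (-0.85 ± 0.169, FDR 0.00934), and its order over the groups was KD6 (96.9 ± 6.12 CPM), EV (59.5 ± 13.2), OE (48.5 ± 10.0), KD4 (33.8 ± 9.20) and Scr (32.7 ± 5.65). EV and OE overlapped in that order, as did OE and KD4 and as did KD4 and Scr. The calls of the chromosome 7 region and of chr9:7446962-7447633 were lost without EV replicate 2 (0.88 and -0.78) or Scr replicate 1 (0.75 and -0.73), and that of the chromosome 16 region in the overexpression table (-0.62). Without EV replicate 1 all 6 calls of this paragraph were kept, with log2 fold changes of 0.95, 0.95, 0.82, -1.25, -0.80 and -0.73 in the order named.

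Over all 5 groups together, 67 of 1040 isolated regions differed (6.44%, against 4.62% over all regions). The 4 with the smallest p were the regions on chromosomes 4, 2, 9 and 5 starting at 122234843, 140797842, 7446962 and 93538685, and each was kept in all 21 alternative analyses. Depending on which library was left out, the number of calls ran from 34 (without OE replicate 2) to 102 (without KD6 replicate 1). It was 35 without OE replicate 1, 37 without KD4 replicate 2, 38 without EV replicate 2 and 45 without EV replicate 1. Over all regions these analyses called 1206, 2747, 1186, 1120, 1263 and 1435 in that order, against 2054 with every library. The regions whose levels followed chr4:122234843-122235493 most closely over the 15 libraries were chr15:34283534-34284173 (Pearson's r 0.809 on log2 CPM), chr3:8527314-8527999 (0.798) and chr9:64622590-64623109 (0.782). These libraries fall into 5 lines, so the correlations describe the lines and carry no p. The median level of the isolated regions was close in all groups, at 13.6 ± 0.429 CPM in EV, 13.3 ± 0.398 in OE, 13.5 ± 0.639 in Scr, 13.2 ± 0.220 in KD4 and 13.1 ± 0.847 in KD6 (SD, n = 3).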

How the data were processed

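The 15 ATAC-seq libraries of monolayer cells were grouped by their titles. The methods state Bowtie2 alignment to mm39 and MACS peak calling in Partek Flow. STAR 2.7.8a stands in the submitters' processing notes instead, beside a protocol for RNA in the labels, so which aligner made the values is uncertain. The authors deposited expected counts per region, not normalized, in 2 tables with different regions. Whole numbers made up 95.1% of the values of the first and 95.0% of the second. A further 15 columns per table, matching no sample, were left unused. The design had assumed whole counts, so values were rounded.

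Regions were tested with edgeR 4.0.16 (quasi-likelihood, TMM, filterByExpr, Benjamini-Hochberg FDR 0.05 over all regions of a table) in R 4.3.3. KD vs Scr compared the average of both knockdown lines with Scr, OE vs EV used the overexpression table, Scr vs EV fitted those groups alone, and 1 F test spanned 5 groups. The procedure was tested on simulated data. Shares were tested by exact permutation, two-sided. Replicates differed by more than sampling noise (smallest chi-square per degree of freedom 3.53), so none was counted as a duplicate.

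Members and lists were chosen with earlier results of these data known. Regions named were up to 4 per direction with the smallest p and at least 2 CPM (for the 5-group test, which has no direction, the 4 smallest), the 5 highest and 2 lowest per kilobase, the 3 most distant, and the 3 most like the first Scr vs EV region. The available annotation was of other builds, so gene classes, gene lists, motifs, marker checks and sequences were not used here. Alternatives were other scalings (none, RLE), DESeq2 1.42.0, no filter, at least 50 counts in 3 libraries, the replicate block, each library left out, isolation over 25 or 100 kb, each knockdown line alone, the other table, all 15 libraries in the fit, and totals without chrM and the 20 largest regions. Shares without the largest member, and level bands without EV replicate 1, were added after seeing the data.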

Additional observations from a re-analysis of the deposited data

Results flagged for a closer look

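At 4 isolated regions the 2 knockdown lines differed, by the test of the difference of KD6 from KD4 itself (edgeR, FDR 0.05). Each line is a separately derived culture, so this test cannot tell whether the effect of the knockdown differed. The log2 differences were 1.52 at chr9:7446962-7447633, 1.08 at chr5:93538685-93539345, 0.91 at chr15:74917075-74917378 and 0.95 at chr15:78505255-78505424. The first 2 calls were kept in 9 of 9 analyses with a library left out, the third in 3 and the last in 1, and the number of calls fell to 2 in 6 of these analyses. Against Scr, the values of KD4 and KD6 were 0.05 and 1.57 at the chromosome 9 region, -0.86 and 0.23 at the chromosome 5 region, -0.71 and 0.20 at the region starting at 74917075, and -0.93 and 0.02 at the region starting at 78505255. Whole counts made up 0% of values at the chromosome 9 region and 100% at the others. Of 4 groups of 6 KD libraries checked for a library far from the rest (the share of counts and the 3 regions called in KD vs Scr), 0 had one. These groups pooled both lines. At the chromosome 9 region KD4 had 24.8 to 43.2 CPM and KD6 90.8 to 103, a spread that could hide a single outlying library. The chromosome 5 and chromosome 15 regions were not checked.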

How the results depend on the processing

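Called isolated regions in KD vs Scr numbered 3 of 1039 tested, against 5 of 1768 with 25 kb isolation and 1 of 618 with 100 kb isolation. The isolation distance changed only which regions were counted, and 120 of all 44289 regions tested were called at each distance. Counted over the other table, isolated calls numbered 1 of 1047, and calls over all regions fell as well, to 62 of 37868. With a library left out, isolated calls numbered 0 to 3. In KD6 vs KD4 they numbered 4 of 1039 tested, against 10 with DESeq2 and 2 to 7 with a library left out. With 100 kb isolation they numbered 1 of 618, with 99 of all 44289 regions called at either distance. In OE vs EV they were 0 under every alternative run. In Scr vs EV they numbered 73, with 8 to 120 when a library was left out, and over 5 groups 67, against 116 with DESeq2 and 34 to 102 with a library left out. Over all regions DESeq2 called 277 against 120 in KD vs Scr, 247 against 99 in KD6 vs KD4 and 3788 against 2054 over 5 groups. With a library left out, the calls over all regions ran from 8 to 170 in KD vs Scr and from 17 to 101 in KD6 vs KD4. They ran from 366 to 2852 in Scr vs EV and from 1120 to 2747 over 5 groups. The difference in share of counts reversed in KD vs Scr to 0.0919 without chrM and the 20 largest regions and to 0.137 without the largest member (-2.05 in the other table, -0.140 to 0.0450 with a library left out, above 0 at 0.0159 without KD4 replicate 1 and 0.0450 without Scr replicate 2). In OE vs EV it reversed to -0.743, -0.481 and -0.362 without those regions, in the other table and without the largest member (0.990 to 2.06 with a library left out). In Scr vs EV it reversed to 2.77 in the other table (-0.598 to -0.169 with a library left out). The cause was not tested. The replicate numbers did not meet the criterion for pairing, a correlation of deviations over 0.1 in every pair (-0.199 to 0.244 in the KD fit, -0.199 to 0.33 over 5 groups). With the replicate numbers as a block, the calls were 3, 6, 0, 87 (40 higher, 47 lower) and 99 in the order above. Over all regions the block gave 99, 86, 3, 2126 and 2652 calls, against 120, 99, 4, 1921 and 2054 without it. The median member count was 262 per library, and the coefficient of variation within groups was 18.8% below 5 CPM and 14.1% at 500 CPM or more.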
